A study of Mus musculus with 30 samples.

Results

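Microglia, the resident macrophages of the brain, were read here through 10 genes that resting microglia of the adult mouse brain express strongly: Cx3cr1, P2ry12, P2ry13, Tmem119, Csf1r, Aif1, Siglech, Gpr34, Olfml3 and Selplg. The genes were given as a list of names, and each was found by its symbol among the 34871 genes of the deposited table. All 10 were among the 23695 genes kept for testing, which had a mean deposited value above 0 over all libraries. The libraries came from the cerebral hemispheres of 30 mice aged 8 months, 10 of each genotype: Tmem106b +/+ (WT), Tmem106b +/- (HET) and Tmem106b -/- (KO). Tmem106b encodes a transmembrane protein of late endosomes and lysosomes. In every genotype, cohort 1 contributed 6 mice and cohort 2 contributed 4, each with as many females as males, and an RNA integrity number (RIN) was recorded for each library. The labels name neither the strain nor the targeted stretch of Tmem106b, and they do not say what distinguishes the cohorts. RNA was of whole hemispheres and not of sorted cells, so fewer microglia and less of an RNA per microglial cell cannot be told apart in any value below.

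Microglia survey the tissue with moving processes, clear debris and synapses, and take on other expression states after injury, in ageing and in neurodegeneration. The 10 genes are usually called homeostatic because several of them, P2ry12 and Tmem119 among them, fall when mouse microglia enter a disease-associated state. Among them, Cx3cr1, Csf1r, P2ry12, P2ry13 and Gpr34 encode receptors for signals from other cells. Siglech encodes a surface protein of the Siglec (sialic acid-binding lectin) family, and Selplg a surface protein that binds selectins. Tmem119 encodes a membrane protein used to mark microglia, and Olfml3 a secreted protein. The product of Aif1, also called Iba1, is a cytoplasmic protein that binds actin and calcium. Some of the 10 genes, Csf1r, Cx3cr1, Aif1 and Selplg among them, are also expressed by other myeloid cells.

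Between mice, P2ry12 varied with Siglech and P2ry13 with Cx3cr1, as described below, and P2ry12 and P2ry13 are neighbours. Without a test of any link to RNA level, the promoters of these 4 genes are shown. Each runs 5′ to 3′ on the gene's own strand from 250 bases before to 50 bases after the RefSeq start in GRCm38.p6, and capitals mark GAGGAAG, the core of sites bound by the myeloid transcription factor PU.1. RefSeq entries were matched for 6 of the 10 genes, the others being Olfml3 and Aif1. The windows are chr3:59262936-59263235 on the minus strand for P2ry12, chr3:59210833-59211132 on the minus strand for P2ry13, chr9:120068247-120068546 on the minus strand for Cx3cr1 and chr7:55767934-55768233 on the plus strand for Siglech.
P2ry12: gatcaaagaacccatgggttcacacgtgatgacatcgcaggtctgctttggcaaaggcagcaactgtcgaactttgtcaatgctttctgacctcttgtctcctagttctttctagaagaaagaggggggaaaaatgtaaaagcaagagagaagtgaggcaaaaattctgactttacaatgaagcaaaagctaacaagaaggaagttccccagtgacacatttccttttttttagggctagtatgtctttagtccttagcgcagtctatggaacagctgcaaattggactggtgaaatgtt
P2ry13: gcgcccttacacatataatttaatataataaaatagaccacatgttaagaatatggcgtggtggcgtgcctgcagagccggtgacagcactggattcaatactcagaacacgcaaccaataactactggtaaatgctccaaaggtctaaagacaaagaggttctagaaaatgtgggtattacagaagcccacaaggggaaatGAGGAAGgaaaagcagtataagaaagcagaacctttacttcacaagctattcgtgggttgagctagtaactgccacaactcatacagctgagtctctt
Cx3cr1: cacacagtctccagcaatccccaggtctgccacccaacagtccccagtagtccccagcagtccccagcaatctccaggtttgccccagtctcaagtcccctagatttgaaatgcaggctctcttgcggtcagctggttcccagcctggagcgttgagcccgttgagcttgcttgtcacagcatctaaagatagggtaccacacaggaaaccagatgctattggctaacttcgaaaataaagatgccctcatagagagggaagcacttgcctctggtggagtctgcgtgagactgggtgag
Siglech: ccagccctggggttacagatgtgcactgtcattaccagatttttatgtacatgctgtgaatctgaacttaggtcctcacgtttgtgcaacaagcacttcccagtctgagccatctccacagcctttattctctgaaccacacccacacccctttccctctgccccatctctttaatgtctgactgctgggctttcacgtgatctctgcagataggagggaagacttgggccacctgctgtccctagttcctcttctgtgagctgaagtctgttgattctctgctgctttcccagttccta

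The letters GAGGAAG, searched on both strands, were found in 1 of the 6 promoters, that of P2ry13, and in 13.6% of all 32851 promoters of the same length. The TATA box letters TATAAA were found in 0 of the 6 and in 13.6% of all promoters. The GC content was 42.3% in both P2ry12 and P2ry13, 54.3% in Cx3cr1 and 50% in Siglech, beside a median of 52.7% over all promoters. These matches describe letters in a window of 300 bases and say nothing of binding.

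On the deposited log2 scale, which is scaled to gene length, the 10 genes covered the middle to upper part of the table. Mean levels over the 30 mice were 7.59 ± 0.07 (SD) for Csf1r, 7.34 ± 0.14 for P2ry12 and 7.05 ± 0.09 for Cx3cr1. Csf1r lay above 80.9% of the genes kept. The ranges of these 3 genes over the mice overlapped from one gene to the next, and each of the 3 stayed above the highest value of the other 7. Selplg (6.39 ± 0.12) and Tmem119 (6.38 ± 0.12) lay at nearly the same level and changed places in KO. Gpr34 (6.15 ± 0.17), P2ry13 (5.81 ± 0.13), Olfml3 (5.63 ± 0.14), Siglech (5.48 ± 0.12) and Aif1 (4.91 ± 0.20) followed, each with a range that overlapped that of its neighbours in the order. Aif1, the lowest, lay above 45.4% of the genes kept.

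No member passed the test between genotypes. With limma's two-sided moderated test and Benjamini-Hochberg adjustment over all genes kept, 0 of the 10 genes had an adjusted p under 0.05 in KO against WT, where 1% of all genes passed (237 genes). The count was also 0 of 10 in HET against WT, where 0.00422% passed (1 gene, Tmem106b itself), and 0 of 10 in KO against HET, where 0.118% passed. The F test of any difference among the 3 genotypes called 0 of 10, beside 0.481% of all genes. At an unadjusted p under 0.05 the counts were 3 of 10 for KO against WT (12% of all genes), 2 of 10 for HET against WT (6.32%) and 1 of 10 for KO against HET (8.66%). KO against WT and HET against WT share the WT mice, so their values are not independent of each other. The labelled genotype was visible in Tmem106b RNA, with levels of 9.17 ± 0.07 (SD, n = 10) in WT, 8.58 ± 0.03 in HET and 7.53 ± 0.08 in KO. The difference from WT was -33.7% in HET and -68.0% in KO, so Tmem106b RNA remained in KO.

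The signs of the small differences were not evenly spread. All 10 genes were lower in HET than in WT in the fit, beside 48.5% of all genes, with a median of -0.07 against 0.00 over all genes. In KO against WT, 6 of 10 were lower (46.7% of all genes), with a median of -0.02 against 0.01. In KO against HET, 1 of 10, Selplg, was lower (48.2% of all genes), with a median of 0.06 against 0.00. HET against WT and KO against HET share the HET mice, so their sign counts are not independent of each other. The 10 genes vary together between mice, as described below, so they are not 10 separate observations of a direction. The mean of the 10 genes in a mouse ran from 6.13 to 6.47 in WT, from 6.15 to 6.28 in HET and from 6.10 to 6.42 in KO, and its SD was 0.0991, 0.0409 and 0.0954. The HET mice thus lay within the range of the WT mice and within that of the KO mice.

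**Figure D1:**
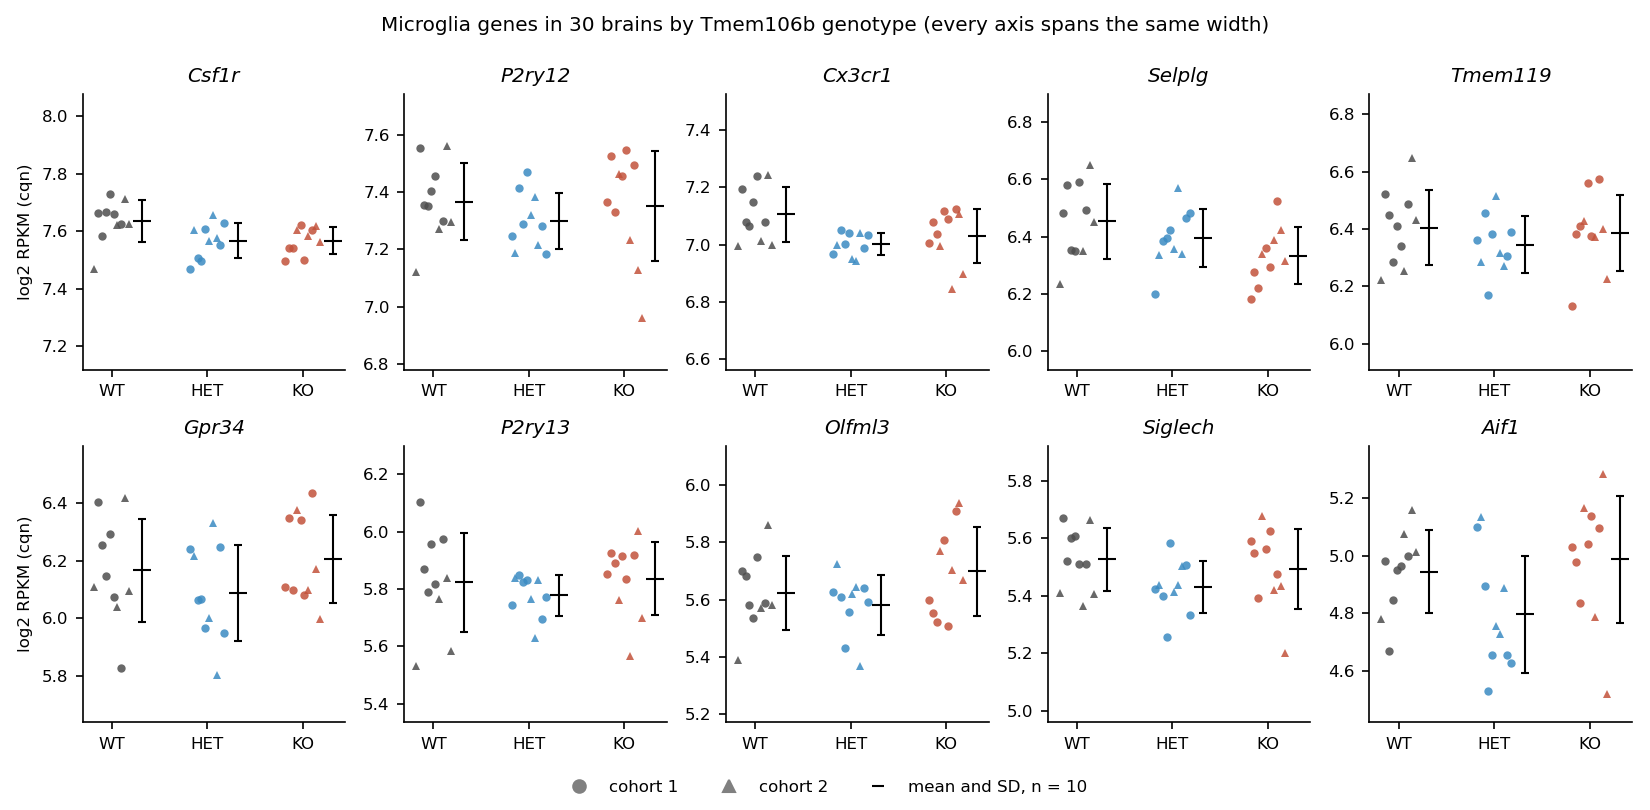
Deposited log2 RPKM of each of the 10 genes (y axis) in every mouse by Tmem106b genotype (x axis), with circles for cohort 1, triangles for cohort 2, and the mean and SD (n = 10) at the right of each group. The 3 genotypes overlap for every gene, and the HET points of Cx3cr1 lie closer together (SD 0.04) than those of WT and KO (0.09 and 0.10).

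The fractalkine and CSF-1 receptors gave the lowest unadjusted p of HET against WT. Cx3cr1 (chr9:119901616-120068283, minus strand, mm10) encodes the receptor for fractalkine, a chemokine that neurons present to microglia. Its lowest, median and highest levels were 7.0, 7.08 and 7.24 in WT, 6.94, 7.0 and 7.05 in HET, and 6.85, 7.06 and 7.12 in KO. All 10 HET mice lay below the WT mean, 4 of them below every WT mouse, and the other HET mice overlapped with WT. The difference was -0.11 ± 0.03 (log2 ± SE) for HET against WT, or -7.26% with a 95% interval of -11.6 to -2.74, and it did not pass after adjustment (unadjusted p = 0.00303, adjusted p = 0.671). For KO against WT it was -0.08 ± 0.03, or -5.20% (-9.52 to -0.674), with an adjusted p of 0.328 and 7 of 10 KO mice below the WT mean. The span of Cx3cr1 in the table overlaps Wdr48, Gorasp1, Ttc21a, Csrnp1 and Xirp1, of which Wdr48 and Ttc21a lie on the opposite strand, and without a stated strand setting reads of overlapping genes cannot be told apart. Of the 4 of these that were kept, 0 passed the test in either comparison with WT.

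Csf1r (chr18:61105572-61132149, plus strand) encodes the receptor kinase for CSF-1 and interleukin-34, on which microglia depend for survival. Its lowest, median and highest levels were 7.47, 7.64 and 7.73 in WT, 7.47, 7.57 and 7.66 in HET, and 7.50, 7.57 and 7.62 in KO. All 10 KO mice and 9 of 10 HET mice lay below the WT mean, but 0 KO and 0 HET mice lay below the lowest WT mouse. The difference was -0.07 ± 0.03 for KO against WT, or -4.74% (95% interval -8.45 to -0.885), with an adjusted p of 0.280. It was -0.08 ± 0.03 for HET against WT (adjusted p = 0.762). The KO difference passed the test in 1 of 30 fits that each left out a library, the one without WT replicate 1 (-0.09, adjusted p = 0.0464). That mouse was the lowest of the WT mice in 7 of the 10 genes, and WT replicate 9 was the highest in 7. In cohort 1 alone the KO difference of Csf1r was -0.10 (adjusted p = 0.118) and in cohort 2 alone it was -0.01 (adjusted p = 0.999). The interaction of KO against WT with cohort called 0 of 10 genes, beside 0.0338% of all genes. The span of Csf1r overlaps Hmgxb3 on the opposite strand (mean level 7.05, KO difference 0.01, adjusted p = 0.950) and Mir6983, which was not kept.

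The receptors for nucleotides and lysophospholipids did not differ between genotypes beyond their spread. P2ry12 (chr3:59216271-59262831, minus strand) encodes the ADP receptor that guides microglial processes toward injured cells. Over the WT mice its lowest, median and highest levels were 7.12, 7.35 and 7.56, beside 7.18, 7.28 and 7.47 in HET, and 6.96, 7.41 and 7.55 in KO. The KO mice held the lowest value of all 30 mice together with a median above that of WT, and 5 of 10 lay below the WT mean. The difference was -0.01 ± 0.06 for KO against WT (adjusted p = 0.954), with a 95% interval of -8.66% to 7.26%. P2ry13 (chr3:59207896-59210882, minus strand), another ADP receptor, lies 5388 bases from P2ry12. It had 5.53, 5.83 and 6.10 in WT, 5.63, 5.80 and 5.85 in HET, and 5.57, 5.87 and 6.0 in KO as lowest, median and highest level. Every KO and HET value lay within the WT range, and the KO difference was 0.01 ± 0.05 (adjusted p = 0.958), with an interval of -6.31% to 8.62%. Both genes lie inside Med12l on the opposite strand, which had a mean level of 6.36 and a KO difference of 0.00 (adjusted p = 0.996).

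Gpr34 (chrX:13632089-13640858, plus strand) encodes a receptor for lysophosphatidylserine and lies inside Cask, which is read from the opposite strand (KO difference 0.01, adjusted p = 0.872). As lowest, median and highest level it had 5.83, 6.13 and 6.42 in WT, 5.80, 6.07 and 6.33 in HET, and 6.0, 6.14 and 6.44 in KO. The groups overlapped over most of their range, and 5 of 10 KO mice lay on each side of the WT mean. The difference was 0.04 ± 0.07 for KO against WT (adjusted p = 0.860), with a 95% interval of -6.22% to 13.3%.

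Among the surface proteins, Selplg had the KO difference farthest from 0 of the 10 genes. Selplg (chr5:113817798-113830501, minus strand) encodes PSGL-1, a glycoprotein that binds selectins. Its lowest, median and highest levels were 6.23, 6.47 and 6.65 in WT, 6.20, 6.39 and 6.57 in HET, and 6.18, 6.33 and 6.53 in KO. Of the KO mice, 9 of 10 lay below the WT mean and 2 lay below every WT mouse, with the rest inside the WT range. The difference was -0.12 ± 0.05 for KO against WT, or -8.07% (95% interval -14.4 to -1.32), and it did not pass (unadjusted p = 0.0217, adjusted p = 0.307). For HET against WT it was -0.06 ± 0.05 (adjusted p = 0.892). Siglech (chr7:55768178-55778925, plus strand), of the Siglec family, had 5.36, 5.52 and 5.67 in WT, 5.26, 5.43 and 5.58 in HET, and 5.20, 5.51 and 5.68 in KO. Here 9 of 10 HET mice lay below the WT mean while the KO mice were split 5 to 5. The differences were -0.10 ± 0.05 for HET (adjusted p = 0.804) and -0.03 ± 0.05 for KO (adjusted p = 0.859).

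Tmem119 (chr5:113793729-113800516, minus strand), the membrane protein used to tell microglia from other macrophages, lies 17281 bases from Selplg. In the same order of lowest, median and highest, its levels were 6.22, 6.42 and 6.65 in WT, 6.17, 6.34 and 6.52 in HET, and 6.13, 6.39 and 6.58 in KO. The 3 ranges nearly coincided. The KO difference was -0.02 ± 0.05 (adjusted p = 0.916), with a 95% interval of -8.69% to 6.02%. The HET difference was -0.07 ± 0.05 (adjusted p = 0.871).

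Aif1 and Olfml3 were the 2 genes with the largest values of KO against HET. Aif1 (chr17:35170991-35176068, minus strand), whose product Iba1 is the usual stain for microglia, had 4.67, 4.97 and 5.16 in WT, 4.53, 4.74 and 5.13 in HET, and 4.52, 5.04 and 5.28 in KO as lowest, median and highest level. The lowest KO mouse lay below every HET mouse although 8 of 10 KO mice lay above the HET mean. The difference of KO against HET was 0.19 ± 0.09, and it did not pass (unadjusted p = 0.0382, adjusted p = 0.539). Against WT it was 0.04 ± 0.09 in KO (adjusted p = 0.900, 95% interval -8.83% to 16.6%) and -0.15 ± 0.09 in HET (adjusted p = 0.825). Olfml3 (chr3:103733700-103738001, minus strand), which encodes a secreted glycoprotein, had 5.39, 5.59 and 5.86 in WT, 5.37, 5.61 and 5.72 in HET, and 5.51, 5.69 and 5.94 in KO. The KO values reached above both other groups, with 2 KO mice above every WT mouse, and otherwise overlapped with them. The Olfml3 difference of KO against HET was 0.12 ± 0.06, and it did not pass (unadjusted p = 0.0507, adjusted p = 0.579). Against WT it was 0.07 ± 0.06 in KO (adjusted p = 0.654), with a 95% interval of -2.75% to 14.1%. The span of Olfml3 overlaps that of BC027582 (mean level 1.29, difference of KO against WT -0.31, adjusted p = 0.758).

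**Figure D2:**
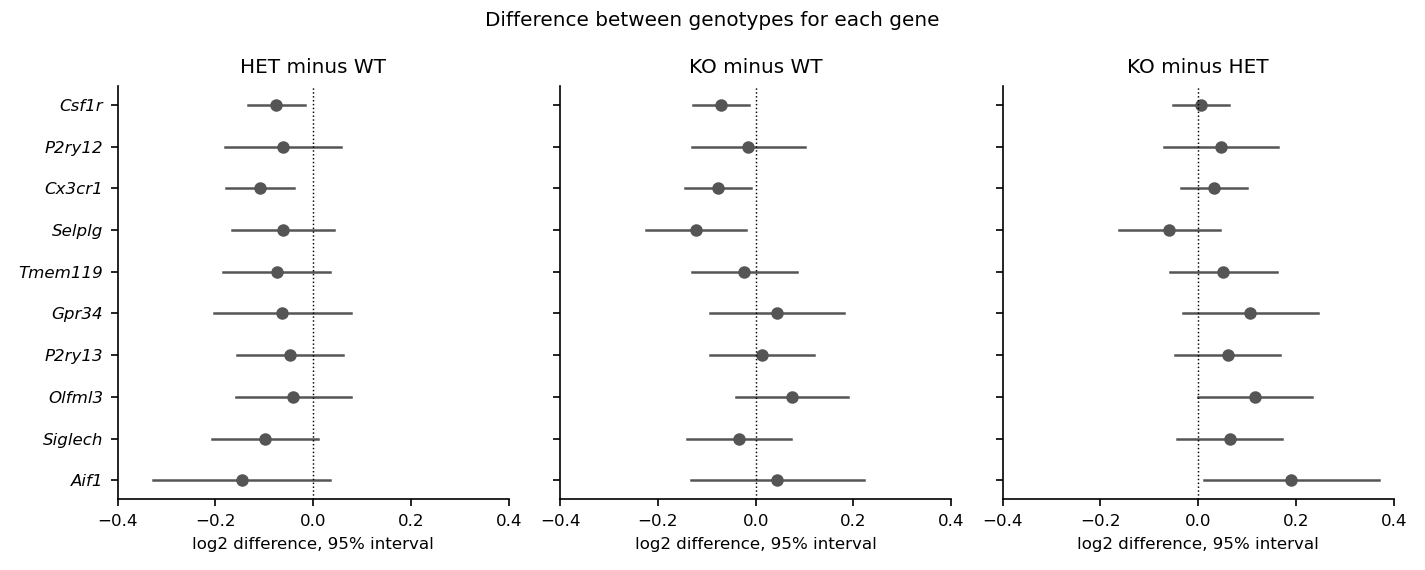
Log2 differences of the 10 genes between genotypes (x axis) from the fit over 30 mice, as points with 95% intervals that are not adjusted for multiple tests; the 3 panels are HET minus WT, KO minus WT and KO minus HET, and the first 2 share the WT mice. All 10 points lie below 0 in HET minus WT, and the interval of Selplg in KO minus WT is the one whose centre, -0.12, lies farthest below 0 in that panel.

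Of the other labelled conditions, cohort was the one in which a member passed the test. P2ry13 was lower in cohort 2 than in cohort 1 by -0.13 ± 0.04 (adjusted p = 0.0376), 1 of 10 genes beside 17.5% of all genes and 9.42% of all genes in that direction. Its levels ran from 5.70 to 6.10 with a median of 5.85 in the 18 mice of cohort 1, and from 5.53 to 6.0 with a median of 5.76 in the 12 mice of cohort 2. The cohorts overlapped. By genotype the means of cohort 2 and cohort 1 were 5.68 and 5.92 in WT, 5.76 and 5.89 in KO, and 5.77 and 5.79 in HET. This call was lost with no filter on low genes (adjusted p = 0.0543) and without any one of HET replicate 7, KO replicates 4, 5 and 10 and WT replicates 1, 5, 7, 8 and 10, where the adjusted p was 0.0501 to 0.0779. Its neighbour P2ry12 had -0.12 ± 0.05 (adjusted p = 0.0807) and Cx3cr1 had -0.08 ± 0.03 (adjusted p = 0.0566), and each passed in some of the fits that left out a library. The mean of P2ry12 was 7.45 in the KO mice of cohort 1 and 7.20 in those of cohort 2.

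**Figure D3:**
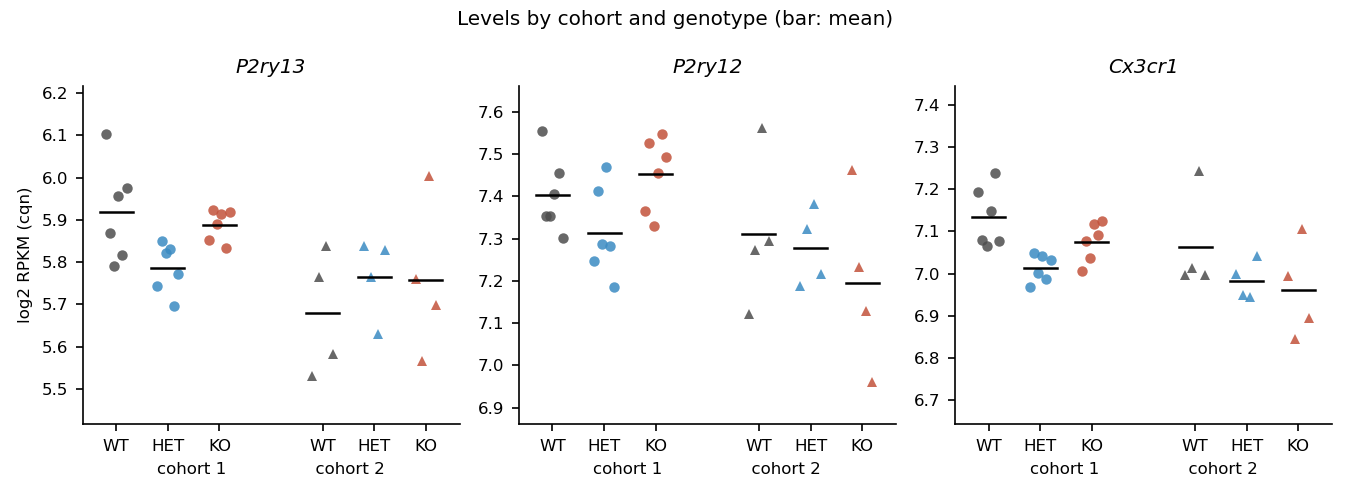
Deposited log2 RPKM (y axis) of P2ry13, P2ry12 and Cx3cr1 in each mouse by cohort and genotype (x axis), with bars at the group means (6 mice of each genotype in cohort 1, 4 in cohort 2). The WT mean of P2ry13 is 5.92 in cohort 1 and 5.68 in cohort 2, and the cohorts overlap for all 3 genes.

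Sex and RNA quality gave no call. Between males and females 0 of 10 genes passed (0.333% of all genes). Gpr34, which is X-linked, had the lowest p, at -0.13 ± 0.05 for males against females (adjusted p = 0.299), with means of 6.09 in 15 males and 6.22 in 15 females. Per unit of RIN 0 of 10 passed (0.0633% of all genes), and the genotypes had similar RIN, with means of 9.23 (HET), 9.35 (KO) and 9.4 (WT). The interaction of KO against WT with sex called 0 of 10 genes beside 0% of all genes in limma, with 7.1% of all genes at an unadjusted p under 0.05.

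The 10 genes varied together between mice of the same genotype, sex, cohort and RIN. Over the residuals of the fit in 30 mice, Pearson's r of the 45 pairs ran from -0.05 to 0.73 with a median of 0.42, and 44 were above 0. By a two-sided permutation test with 100000 resamples and Benjamini-Hochberg adjustment over the 45 pairs, 26 pairs passed with Pearson's r, 19 with Spearman's rho and 18 with both, and 0 of the 26 were negative. The permutations treated the residuals as exchangeable. The fit had already removed genotype, sex, cohort and RIN from them, so the permutation p may be too small. The pairs share their libraries, so a library that is high or low in all microglial RNA moves all of them. Within cohorts the median r was 0.30 in the 18 mice of cohort 1, where 2 pairs passed, and 0.54 in the 12 mice of cohort 2, where 12 passed.

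Tmem119 and Olfml3 were the closest pair, with r = 0.73 and rho = 0.72, each with a permutation p of 1e-05, the smallest these resamples can give (adjusted p = 0.00045). Without the 2 mice farthest from the median of Tmem119, r was 0.67, and it was 0.74 in each cohort. P2ry12 and Siglech followed with r = 0.72 and rho = 0.66 (adjusted permutation p = 0.00045 and 0.0021), 0.60 without the 2 farthest mice, 0.56 in cohort 1 and 0.83 in cohort 2. For P2ry12 and Gpr34, r was 0.67 (rho 0.62, adjusted permutation p = 0.000562 and 0.00341), 0.55 without the 2 farthest mice, and 0.43 and 0.89 in the 2 cohorts. Cx3cr1 and P2ry13 had r = 0.67 (rho 0.65, adjusted permutation p = 0.00045 and 0.00259), 0.62 without the 2 farthest mice, and 0.39 and 0.82 in the 2 cohorts. In the residuals of the 30 mice, nearness on the chromosome did not go with the closest likeness in the P2Y receptors. There P2ry12 and P2ry13 had r = 0.24 (rho 0.28, adjusted permutation p = 0.216 and 0.166), and 0.18 without the 2 farthest mice. Their r was 0.35 in cohort 1 and 0.19 in cohort 2. On the deposited values it was 0.44, beside a median of 0.41 over the 45 pairs. The other neighbours, Tmem119 and Selplg, had r = 0.57 (rho 0.54, adjusted permutation p = 0.00369 and 0.0132), 0.43 without the 2 farthest mice. Their r was 0.53 in cohort 1, 0.64 in cohort 2 and 0.49 on the deposited values. Aif1 and Selplg had the lowest value, r = -0.05 (rho -0.01, adjusted permutation p = 0.802 and 0.963). By the number of its 9 pairs that passed with Pearson's r, Cx3cr1 came first with 8 and P2ry13 last with 3.

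**Figure D4:**
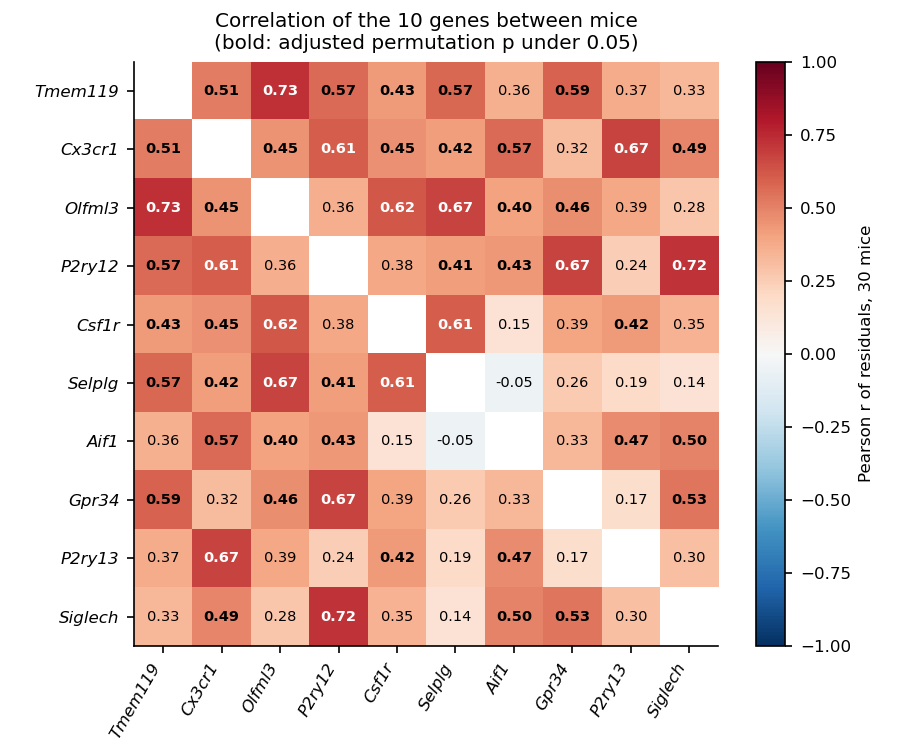
Pearson's r between each pair of the 10 genes over 30 mice (colour and number), from the residuals of genotype, sex, cohort and RIN, with genes ordered by their median r and bold numbers where the adjusted permutation p was under 0.05. The highest value is 0.73 for Tmem119 and Olfml3, and the lowest is -0.05 for Aif1 and Selplg.

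Across the table, the gene most like the mean of the 10 was Itgam, which encodes the integrin chain CD11b of myeloid cells, with r = 0.78 over the 30 mice. Others among the 12 highest by the same measure were Myom3 (0.74), Lpl (0.74), Trem2 (0.73), Lgals9 (0.72), Cdk14 (0.72), Hapln1 (0.72), Ly86 (0.71), C2cd4c (0.70), RP24-252K15.4 (0.70) and Laptm5 (0.70). Some of these depended on the setting: r of Lpl was 0.36 in cohort 1 and 0.94 in cohort 2, that of Cdk14 and of RP24-252K15.4 was 0.46 in cohort 1, and on the deposited values r of Cdk14 was 0.32 and that of C2cd4c was 0.34. Itgam had 0.72 in cohort 1, 0.83 in cohort 2 and 0.66 on the deposited values. Trem2, Ly86 and Laptm5 are expressed by microglia and other myeloid cells, whereas Hapln1 encodes a link protein of the extracellular matrix. Each of the 10 members, measured against the other 9, had an r from 0.49 (Aif1) to 0.72 (Cx3cr1). The median r was 0.51 over 20 genes shared by myeloid cells, 0.21 over 26 other microglial genes and 0.00 over all other genes. Lists of other cells lay on both sides of the 26 microglial genes, at 0.42 over 5 red blood cell genes, 0.30 over 10 border macrophage genes, 0.26 over 11 neuron genes, 0.09 over 10 oligodendrocyte genes, 0.08 over 9 astrocyte genes and 0.00 over 8 endothelial genes. The red blood cell genes had a mean of 11.6 in KO replicate 9 and of 7.94 to 9.46 in the other 29 mice, and their part in the likeness was not tested. These are descriptions over 30 libraries that share preparation and normalization.

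Among 26 further genes typical of microglia, 2 were higher in KO than in WT, 0 were lower and 24 did not pass, with a median of -0.04. Over all 23695 genes, 66 were higher and 171 were lower. At an unadjusted p under 0.05 there were 6 of the 26, beside 12% of all genes. Of the 26, 17 were below 0, beside 46.7% of all genes. Bhlhe41, a transcription factor, had lowest, median and highest levels of 6.56, 6.81 and 7.03 in WT and 6.87, 7.12 and 7.28 in KO, and rose by 0.26 ± 0.06 (adjusted p = 0.0241). All 10 KO mice lay above the WT mean and 7 above every WT mouse. Mertk, a receptor kinase for the uptake of dead cells, had 6.50, 6.60 and 6.68 in WT and 6.53, 6.87 and 7.14 in KO, and rose by 0.24 ± 0.06 (adjusted p = 0.0290). Of its KO values, 8 of 10 lay above every WT mouse. Both genes are also expressed outside microglia, Mertk by astrocytes among others. The span of Mertk overlaps Gm14011 and Gm23172. The call of Bhlhe41 was lost without any one of KO replicates 1, 3 and 8 and WT replicates 4 and 6 (adjusted p 0.0522 to 0.0585) and with genotype alone in the fit (0.0670), and that of Mertk without any one of KO replicates 3, 6, 8 and 9 and WT replicates 4, 5, 6, 8 and 9 (0.0504 to 0.0641). Sall1, a transcription factor of microglial identity, had a difference of -0.12 ± 0.05 (adjusted p = 0.257).

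Of 20 genes that microglia share with other myeloid cells, 1 was higher in KO, 0 were lower and 19 did not pass. At an unadjusted p under 0.05 there were 7 of the 20, beside 12% of all genes. Of the 20, 5 were below 0, beside 46.7% of all genes, and the median was 0.06. C1qb, a chain of the complement protein C1q, had lowest, median and highest levels of 8.55, 8.60 and 8.79 in WT and 8.67, 8.78 and 9.03 in KO, and rose by 0.18 ± 0.04 (adjusted p = 0.0158). All 10 KO mice lay above the WT mean and 4 above every WT mouse. With only WT and KO in the fit the adjusted p was 0.0619. Tyrobp, the adaptor DAP12 through which Siglech and Trem2 signal, had 0.17 ± 0.06 (adjusted p = 0.249), and Trem2 had 0.18 ± 0.07 (adjusted p = 0.259). In HET against WT, 17 of these 20 genes and 22 of the 26 above were below 0, beside 48.5% of all genes, and 0 of them passed. Of the lists of other cells, 10 of 10 oligodendrocyte, 8 of 9 astrocyte and 5 of 5 red blood cell genes were below 0. The same held for 5 of 8 endothelial and 2 of 11 neuron genes.

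The ligands and upstream regulators of the 10 genes were looked at in the same fit. Of 14 genes that act on Csf1r or on microglial identity, 0 passed in KO against WT and 8 were below 0. The median was -0.02, with 2 of the 14 at an unadjusted p under 0.05 (12% of all genes). Csf1 and Il34, the 2 ligands of Csf1r, had -0.06 ± 0.04 (adjusted p = 0.612) and -0.03 ± 0.04 (adjusted p = 0.840). Tgfbr2, a receptor for TGF-beta, on which the microglial expression state depends, had -0.17 ± 0.05 (adjusted p = 0.0806). RNA of whole hemispheres does not tell which cells carried this difference. Spi1, which encodes PU.1, had 0.15 ± 0.08 (adjusted p = 0.449).

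Of 12 kept genes whose products bind or act beside the 10, 9 were below 0 in KO against WT (46.7% of all genes). At an unadjusted p under 0.05 there were 5 of the 12, beside 12% of all genes, and the median was -0.05. After adjustment, 0 were higher and 1 was lower. That gene was Kcnk13, which encodes THIK-1, a potassium channel of microglia whose activity P2ry12 can raise. Its lowest, median and highest levels were 4.88, 5.13 and 5.31 in WT, 4.99, 5.09 and 5.23 in HET, and 4.78, 4.86 and 5.01 in KO. All 10 KO mice lay below the WT mean and 6 below every WT mouse, while the HET mice lay inside the WT range. Kcnk13 fell by 0.23 ± 0.05 (adjusted p = 0.0183) in KO, and its HET difference was -0.01 ± 0.05 (adjusted p = 0.988). The call was kept in each of the 30 fits that left out 1 library, and was lost with only WT and KO in the fit (adjusted p = 0.0736) and in each cohort or sex alone. Kcnk13 (chr12:99964499-100062682, plus strand) overlaps Gm23291 in the table. Cx3cl1, the fractalkine ligand of Cx3cr1, had -0.11 ± 0.04 (adjusted p = 0.261). The lists of this and the previous paragraphs were drawn up with earlier results of these data known, and their counts are descriptions.

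**Figure D5:**
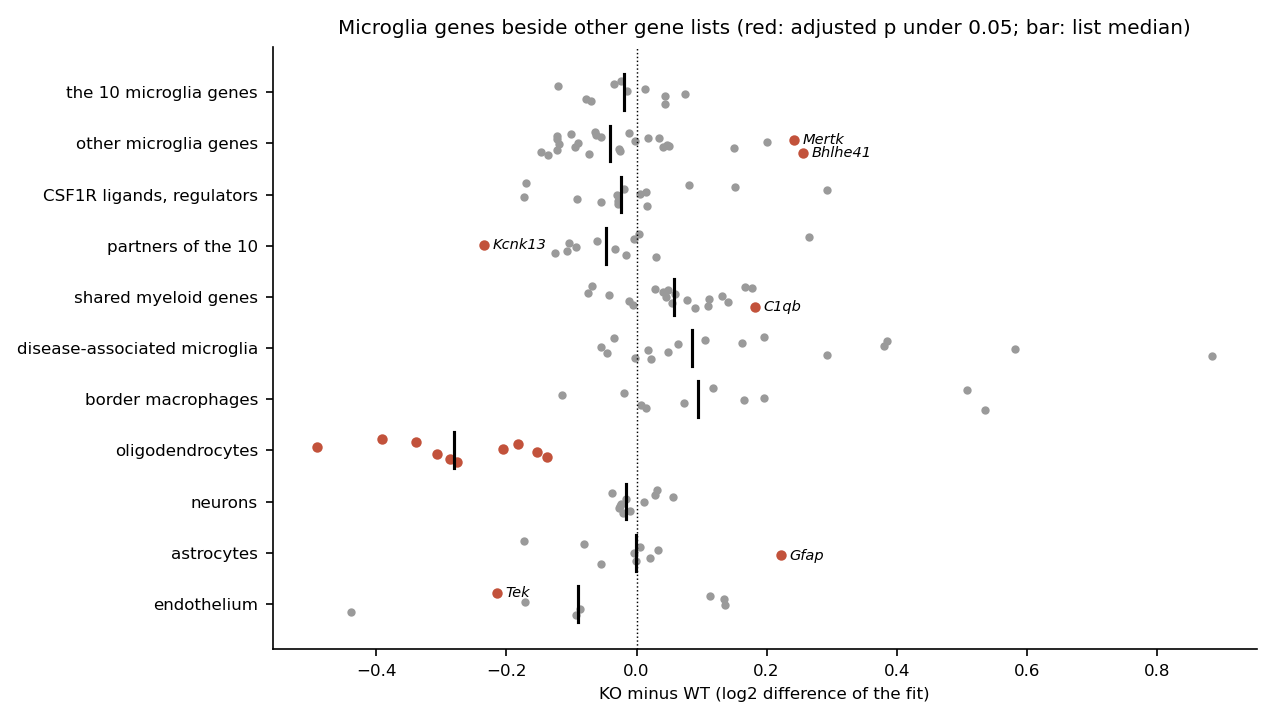
Log2 difference of KO minus WT (x axis) for each gene of the lists (y axis), with red points for an adjusted p under 0.05 and a bar at each list's median; lists of blood leukocytes and red blood cells are not drawn. The 10 microglia genes lie between -0.12 and 0.07 with no red point, and the 10 oligodendrocyte genes lie between -0.49 and -0.14.

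Markers of neighbouring states and cells gave these values. Of 16 genes of disease-associated microglia, 0 passed in KO against WT, and the median was 0.08. Of the 16, 4 were below 0, beside 46.7% of all genes. At an unadjusted p under 0.05 there were 4 of the 16, beside 12% of all genes. Of 10 genes of macrophages at the brain's borders, 0 passed, 2 were below 0 and the median was 0.09. At an unadjusted p under 0.05 there were 3 of these 10. Their mean level was 2.62 for WT, 2.64 for HET and 2.77 for KO, below that of the 10 microglia genes (6.30, 6.23 and 6.29). Of 12 genes of blood leukocytes, 6 were at too low a level to be kept (mean deposited value of 0 or less), among them the T cell genes Cd3e and Cd3g. The oligodendrocyte list differed most, with 10 of 10 genes lower in KO and mean levels that ran 9.39 (WT), 9.29 (HET) and 9.11 (KO), and its part in the values of the microglia genes was not tested. The astrocyte list had 1 of 9 genes higher, Gfap (0.22 ± 0.05, adjusted p = 0.00967), the span of which overlaps Gm26668. Of these 9 genes, 5 were below 0 and 3 were at an unadjusted p under 0.05, with a median of -0.001. The endothelial list had 1 of 8 lower, Tek (-0.21 ± 0.05, adjusted p = 0.0461), a call that was lost without any one of 20 of the 30 libraries. It was also lost with no filter (adjusted p = 0.0673), no intensity trend (0.0600), genotype alone (0.0583) and only WT and KO in the fit (0.127). In that list 7 of 8 genes were at an unadjusted p under 0.05, 5 of 8 were below 0 and the median was -0.09, with Cldn5, a tight junction protein, at -0.44 ± 0.11 (adjusted p = 0.0567). Of 11 neuron genes, 0 passed (median -0.02), as did 0 of 6 kept leukocyte genes (median 0.13) and 0 of 5 red blood cell genes (median 0.10). In cohort 2 alone, females alone and males alone, the calls of Kcnk13, Bhlhe41, Mertk, C1qb, Gfap and Tek were each lost, and their differences kept their sign. In cohort 2 alone Bhlhe41 was at 0.05 and Tek at -0.04, whereas Kcnk13 was at -0.18, Mertk at 0.16, C1qb at 0.15 and Gfap at 0.36. The call of Gfap was also lost in cohort 1 alone (0.13, adjusted p = 0.173).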

How the data were processed

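RNA-seq libraries of the cerebral hemispheres of 30 mice were analysed. Per the submitters' processing notes, the tools were TopHat2 2.0.12 with Bowtie 1.1.0 and the build mm10. Neither the counting step nor its strand setting is named there or in the labels. What the authors deposited are log2 RPKM values after conditional quantile normalization (cqn), per the file headers, which adjusts for gene length and GC content. No pseudocount was added. Read depth is unknown, so precision was judged from the spread between mice.

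Genes with a mean deposited value above 0 were kept (23695). Each was fitted in limma 3.58.1 (R 4.3.3) on genotype, sex, cohort and RIN over all libraries (eBayes with an intensity trend), with Benjamini-Hochberg adjustment over the genes kept. SEs and intervals are those of the fit. Correlations used its residuals and permutation tests (numpy 2.4.6, scipy 1.17.1). Scripts were tested on simulated data. Each sample is a separate mouse, and replicate numbers, given in accession order, pair nothing.

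The 10 members and all gene lists were chosen with earlier results of these data known. Named genes are the members, genes that overlap them, genes called in KO against WT in each list or up to 3 others with the lowest p, and the 12 genes most like the members, and some genes that meet this rule are not reported here; Sall1, Tyrobp, Trem2, Csf1, Il34, Spi1, Cx3cl1, Cldn5 and the leukocyte genes below the filter were named for their roles after their values were seen. Alternatives varied covariates, samples, filter, eBayes trend, array weights, scaling, cohort, sex and single libraries; those for genes outside the members were chosen after seeing the data.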

Additional observations from a re-analysis of the deposited data

How the results depend on the processing

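Of 430 recomputed differences per contrast (10 genes under each alternative), the direction and the side of the threshold were kept in 415 for KO against WT, 427 for HET against WT and 415 for KO against HET. The exceptions are given here, and the cause was not tested.

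KO against WT called 0 to 1 members over the fits without 1 library, the 1 being Csf1r without WT replicate 1. Cohort 2 against cohort 1 called 1 member, 2 with a mean above 2 as the filter, 0 with no filter and 0 to 3 over the fits without 1 library. Pairs that passed numbered 2 in cohort 1 and 12 in cohort 2 instead of 26, and the median r of a member with the other 9 was 0.463 and 0.723 instead of 0.596. Signs that turned belonged to differences that did not pass. For KO against WT, P2ry12 was 0.048 in cohort 1 and 0.10 in males (-0.039 to 0.026 without 1 library), P2ry13 was -0.030 in cohort 1 and -0.030 in males (-0.017 to 0.042), and Tmem119 was 0.0012 in females (-0.055 to 0.0096). Aif1 was -0.068 in cohort 2 and Siglech 0.042 in males. For HET against WT, P2ry12 was 0.021 and Tmem119 0.0066 in males, and P2ry13 was 0.093 in cohort 2. For KO against HET in cohort 2, Cx3cr1 was -0.017, P2ry12 -0.083, P2ry13 -0.012, Csf1r -0.0082 and Siglech -0.010. In males, Cx3cr1 was -0.021, P2ry13 -0.024, Tmem119 -0.0095 and Csf1r -0.023, and Csf1r ran from -0.0049 to 0.016 without 1 library.

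Over all genes, KO against WT called 237 genes, 482 in cohort 1, 4 in cohort 2, 13 in females, 15 in males, 144 with genotype alone, 114 with 2 groups in the fit, 138 without WT replicate 4 and 388 without KO replicate 10. HET against WT called 1 gene, 4 with genotype alone, 3 with no RIN term and 1 to 3 without 1 library. KO against HET called 28, 43 with array weights, 12 and 1 in cohorts 1 and 2, 3 in females, 2 in males and 44 without KO replicate 7. The oligodendrocyte count of 10 was 2 in cohort 2, 4 in females and 3 in males. No paired analysis was possible because each sample is a separate mouse and the labels pair no mice. Single cohorts and sexes hold 4 to 6 mice per genotype, which limits what those fits can call. The normalized values carry no counts, so no depth limit can be given for a single gene.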
